A study of Mus musculus with 4 samples.

Results

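Elastic fibre genes numbering 10 were described in endothelial cells sorted from mouse hearts: the elastin gene Eln, the fibrillin genes Fbn1 and Fbn2, the fibulin genes Fbln1, Fbln2, Fbln5, Efemp1 and Efemp2, and the microfibril-associated genes Mfap4 and Mfap5. They were chosen by gene symbol as a family, and they are 10 of 38087 genes listed. The Gata4 KO group comprised 2 libraries of cells with a tamoxifen-inducible Cre (Tie2-CreERT2), a Cre-dependent eGFP reporter in the Rosa locus and LoxP-targeted Gata4 that Cre recombines. The control group comprised 2 libraries of cells with the same Cre transgene and reporter, for which the labels name no recombination of Gata4. All mice were on a C57BL/6 background, ate tamoxifen chow (40 mg/kg body weight) from 4 weeks of age and were used at 8 weeks, after 4 weeks of tamoxifen, and eGFP+ CD31+ interstitial cells were sorted from healthy ventricles. The Tie2 promoter and enhancer drive Cre, and Tie2 is also active in some blood cells. Descriptions of both control libraries join 2 numbers and those of Gata4 KO do not, while the title of control 2 gives a single number. Whether and which libraries were pooled is therefore unclear, and pooling and genotype cannot be told apart.

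Elastic fibres are built from a core of crosslinked elastin on a scaffold of fibrillin microfibrils. Fibulins bind elastin and help it to deposit on the microfibrils, microfibril-associated proteins decorate the scaffold, and lysyl oxidases crosslink the elastin monomers. In the heart and its vessels these genes are mainly known from smooth muscle cells and fibroblasts, and endothelial cells make some of them.

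Values are the deposited log2 values, which the authors centred on the median of each gene's 4 libraries, so a level cannot be compared between genes. The centring makes the 2 middle libraries of a gene equal in size and opposite in sign, which is why the same digits often appear in both groups. Library depth is unknown. Gata4 itself had log2 values of -0.14 and -0.46 in Gata4 KO and 0.48 and 0.14 in control, a log2 difference of -0.61 (limma adjusted p = 0.663). This value covers the whole gene, and the deleted part is not named in the labels. Xist had log2 values of 2.76 and 3.71 in Gata4 KO and its lowest listed value, -2.76, in each control. Both Gata4 KO libraries shared the lowest value of the Y-linked genes Ddx3y, Eif2s3y, Kdm5d and Uty, and both controls were above it. Sex and genotype therefore cannot be told apart in any difference below. Nor can fewer cells of a type be told apart from less RNA per cell. All 10 pan-endothelial and all 12 fibroblast markers varied between libraries with no tie at the lowest value, so transcripts of both kinds were registered in at least 3 of the 4 libraries.

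Every elastic fibre gene that varied lay lower in both Gata4 KO libraries than in both controls, by very different amounts, except that the groups of Eln overlapped once library medians were subtracted. Efemp1, Mfap4, Fbln1 and Mfap5 had log2 differences between -2.61 and -1.24, whereas Efemp2, Fbn1, Fbln5, Eln and Fbln2 had differences between -0.44 and -0.31. Fbn2 was identical in all 4 libraries and could not be tested, which left 9 of 10 genes. Of all 14470 genes tested, 17.3% had both Gata4 KO libraries below both controls. The median log2 difference was -0.44 over the 9 genes and -0.0088 over all genes tested. By limma with Benjamini-Hochberg adjustment over all genes, 0 of the 9 passed an adjusted p of 0.05, as did 0.0% of all genes. At an unadjusted p of 0.05, 4 of the 9 were lower, where 5.36% of all genes were. A log2 difference of -1 or less was reached by the same 4, and by 3.59% of all genes.

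**Figure D1:**
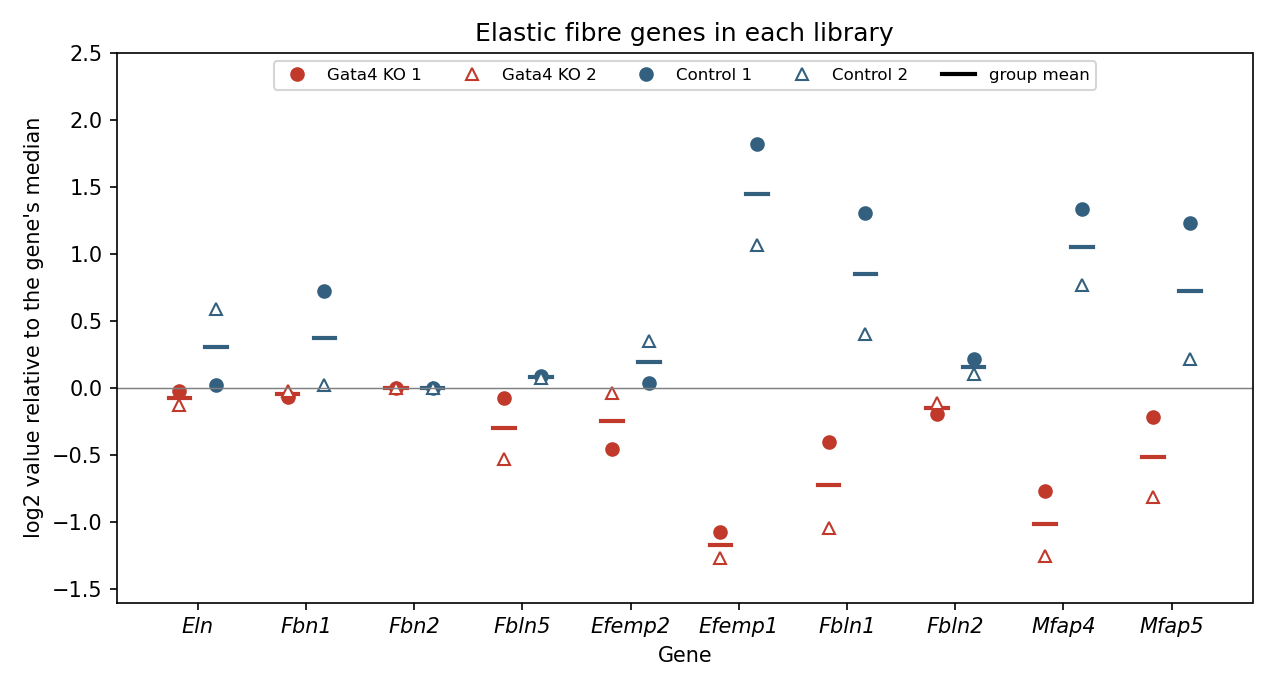
Log2 value relative to the gene's median (vertical axis) of the 10 elastic fibre genes in each of the 4 libraries; red symbols are Gata4 KO, blue symbols are control and bars are group means of 2 libraries. The groups stand far apart for Efemp1 and Mfap4, and nearly touch for Eln, Fbn1 and Efemp2.

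The core and the scaffold had small differences, with intervals that include 0. Eln, which encodes tropoelastin (mm10 chromosome 5, 134702593 to 134747323, minus strand), had log2 values of -0.02 and -0.13 in Gata4 KO and 0.02 and 0.59 in control. Control 2 stood apart, and the highest Gata4 KO and the lowest control value were 0.04 apart. The log2 difference was -0.38 (standard error 0.28, 95% confidence interval -1.10 to 0.34, limma adjusted p = 0.842). It was -0.66 without control 1 and -0.093 without control 2. Eln and Fbn1 overlap the annotated genes Gm30003 and Gm9913 on the opposite strand, of which Gm9913 was listed at 0 throughout and Gm30003 was not analysed here.

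Fbn1, the gene of the main adult fibrillin and the gene mutated in human Marfan syndrome (chromosome 2, 125300594 to 125507993, minus strand), had log2 values of -0.07 and -0.02 in Gata4 KO and 0.73 and 0.02 in control. Here control 1 stood apart and control 2 lay beside the Gata4 KO libraries. The log2 difference was -0.42 (standard error 0.31, 95% confidence interval -1.21 to 0.37, limma adjusted p = 0.842). It was -0.07 without control 1 and -0.77 without control 2. The high control was thus a different library in Eln and in Fbn1. Fbn2, which encodes a fibrillin known mainly from development (chromosome 18, 58008623 to 58210487, minus strand), was listed at 0 in all 4 libraries.

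Among the short fibulins, Fbln5 and Efemp2 had small differences and Efemp1 the largest of the family. Fbln5, whose protein tethers tropoelastin to cells and microfibrils (chromosome 12, 101746565 to 101819055, minus strand), had log2 values of -0.08 and -0.53 in Gata4 KO and 0.09 and 0.08 in control. The controls were alike and Gata4 KO 2 was the low library. Its log2 difference was -0.38 (standard error 0.26, 95% confidence interval -1.04 to 0.28). Leaving out Gata4 KO 1 gave -0.61, and leaving out Gata4 KO 2 gave -0.16.

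Efemp2, which encodes the fibulin that brings lysyl oxidase to tropoelastin (chromosome 19, 5473954 to 5482517, plus strand), had log2 values of -0.45 and -0.04 in Gata4 KO and 0.04 and 0.35 in control. Neighbouring libraries of the groups were 0.08 apart, less than the gap of 0.41 within Gata4 KO. The log2 difference was -0.44 (standard error 0.27, 95% confidence interval -1.13 to 0.25), and -0.23 without Gata4 KO 1, -0.28 without control 2 or -0.65 once Gata4 KO 2 was left out. Efemp2 overlaps the end of Mus81 on the opposite strand (log2 difference -0.23), and whether counting used strand is not given in the sources used here.

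Efemp1, which encodes a fibulin of basement membranes and vessel walls (chromosome 11, 28853204 to 28926743, plus strand), had log2 values of -1.07 and -1.26 in Gata4 KO and 1.82 and 1.07 in control. Both Gata4 KO libraries were far below both controls, with 2.14 between the nearest libraries of the groups, against gaps of 0.19 within Gata4 KO and 0.75 within control. Efemp1 was 6.12-fold lower in Gata4 KO (log2 difference -2.61, standard error 0.33, 95% confidence interval -3.45 to -1.78, limma unadjusted p = 5.0e-04, adjusted p = 0.233). It had the 18th lowest difference of the 14470 genes tested. Within each library, the centred value of Efemp1 minus that of Efemp2 was -0.62 and -1.23 in Gata4 KO and 1.79 and 0.72 in control. Each gene is centred on its own median, so these values do not say which gene had the higher level. The log2 difference of Efemp1 minus that of its paralogue Efemp2 was -2.18, a contrast that was not tested.

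The long fibulins also parted. Fbln1, whose protein binds fibronectin, basement membrane proteins and elastic fibres (chromosome 15, 85205949 to 85286535, plus strand), had log2 values of -0.40 and -1.04 in Gata4 KO and 1.30 and 0.40 in control. The groups did not overlap, but the gap between them (0.80) was smaller than that between the controls (0.90). Fbln1 was 2.98-fold lower in Gata4 KO (log2 difference -1.58, standard error 0.41, 95% confidence interval -2.63 to -0.52, limma unadjusted p = 0.0124, adjusted p = 0.436).

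Fbln2, a fibulin gene of vessel walls and developing heart valves (chromosome 6, 91212455 to 91272540, plus strand), had log2 values of -0.19 and -0.11 in Gata4 KO and 0.21 and 0.11 in control. Libraries of a group were close, 0.08 apart within Gata4 KO and 0.11 within control, and the groups were 0.22 apart. The log2 difference was -0.31 (standard error 0.22, 95% confidence interval -0.87 to 0.25, limma adjusted p = 0.842). The centred value of Fbln1 minus that of Fbln2 was -0.21 and -0.94 in Gata4 KO and 1.09 and 0.29 in control. These values, too, do not say which gene had the higher level.

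The sequence just before the start of Efemp1 and Fbln1 is shown beside that before a transcript start of Fbln2. These are fibulin genes with large and small differences between libraries labelled Gata4 KO and control. The sequence of Fbln2 lies inside the annotated gene, which begins at 91212455, whereas those of Efemp1 and Fbln1 end at the annotated gene start. Each run is the 250 bases before a transcript start in RefSeq (GRCm38.p6, which is mm10), 5′ to 3′ on the plus strand. Capitals mark matches on either strand to the GATA hexamers (AGATAA and AGATAG, as well as TGATAA and TGATAG), to TATAAA, to the GC box GGGCGG or to the E box CACGTG, and no match overlaps another.
Efemp1, chr11:28852955-28853204: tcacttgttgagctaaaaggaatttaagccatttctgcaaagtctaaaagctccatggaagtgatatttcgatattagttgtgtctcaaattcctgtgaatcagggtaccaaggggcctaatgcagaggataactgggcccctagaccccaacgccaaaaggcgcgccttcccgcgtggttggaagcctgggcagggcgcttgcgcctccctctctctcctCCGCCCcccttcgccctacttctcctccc
Fbln1, chr15:85205699-85205948: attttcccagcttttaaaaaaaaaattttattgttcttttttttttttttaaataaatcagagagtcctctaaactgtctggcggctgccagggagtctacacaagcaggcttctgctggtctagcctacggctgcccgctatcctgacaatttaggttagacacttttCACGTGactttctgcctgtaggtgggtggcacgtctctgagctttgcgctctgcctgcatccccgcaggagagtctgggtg
Fbln2, chr6:91212514-91212763: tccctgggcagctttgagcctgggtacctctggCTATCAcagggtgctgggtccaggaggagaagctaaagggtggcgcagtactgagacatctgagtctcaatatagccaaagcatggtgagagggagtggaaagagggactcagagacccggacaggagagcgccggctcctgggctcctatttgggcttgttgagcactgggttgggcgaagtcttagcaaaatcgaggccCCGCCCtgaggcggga

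Efemp1 held a GC box starting at base -29 from the transcript start, Fbln1 an E box at -81, and Fbln2 a GATA hexamer at -217 and a GC box at -16. A later start of Fbln1, whose window (chr15:85205758-85206007) overlaps the one shown, has the same E box at -140 and a GC box at -11. Promoter windows were found for 6 of the 10 genes, 10 windows in all, some of them overlapping. A GATA hexamer was in 1 of these windows, that of Fbln2 inside the annotated gene, and in 26.5% of 32851 windows of all genes. A GC box was in 8 of the 10 windows, against 32.7% of all windows, and an E box in 2, the overlapping windows of Fbln1, against 6.02%. Efemp2, Fbln5 and Fbln1 each had more than 1 of these windows. Bases G and C made up from 46.4% (Fbln1) to 78.8% (Efemp2) of a window, beside a median of 52.4% over all windows. The counts of GC boxes were not adjusted for this. TATAAA was in none of the 10, against 12.4% of all windows. These are matches of letters in a short window and say nothing of binding.

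Both microfibril-associated genes were among the larger differences. Mfap4, whose protein binds tropoelastin and fibrillin (chromosome 11, 61485431 to 61488900, plus strand), had log2 values of -0.77 and -1.26 in Gata4 KO and 1.33 and 0.77 in control. The groups were 1.53 apart, against gaps of 0.49 within Gata4 KO and 0.57 within control. Mfap4 was 4.17-fold lower in Gata4 KO (log2 difference -2.06, standard error 0.32, 95% confidence interval -2.88 to -1.24, limma unadjusted p = 0.0014, adjusted p = 0.297) and had the 53rd lowest difference. Its end overlaps that of Mapk7 on the opposite strand, which had a log2 difference of 0.58.

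Mfap5, which encodes a small glycoprotein bound to fibrillin (chromosome 6, 122505845 to 122529290, plus strand), had log2 values of -0.22 and -0.81 in Gata4 KO and 1.23 and 0.22 in control. Control 1 stood far above the other libraries, and the 2 controls were 1.01 apart. Mfap5 was 2.36-fold lower in Gata4 KO (log2 difference -1.24, standard error 0.43, 95% confidence interval -2.34 to -0.13, limma unadjusted p = 0.0349, adjusted p = 0.557), with a difference of -0.73 without control 1 and -1.74 without control 2.

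**Figure D2:**
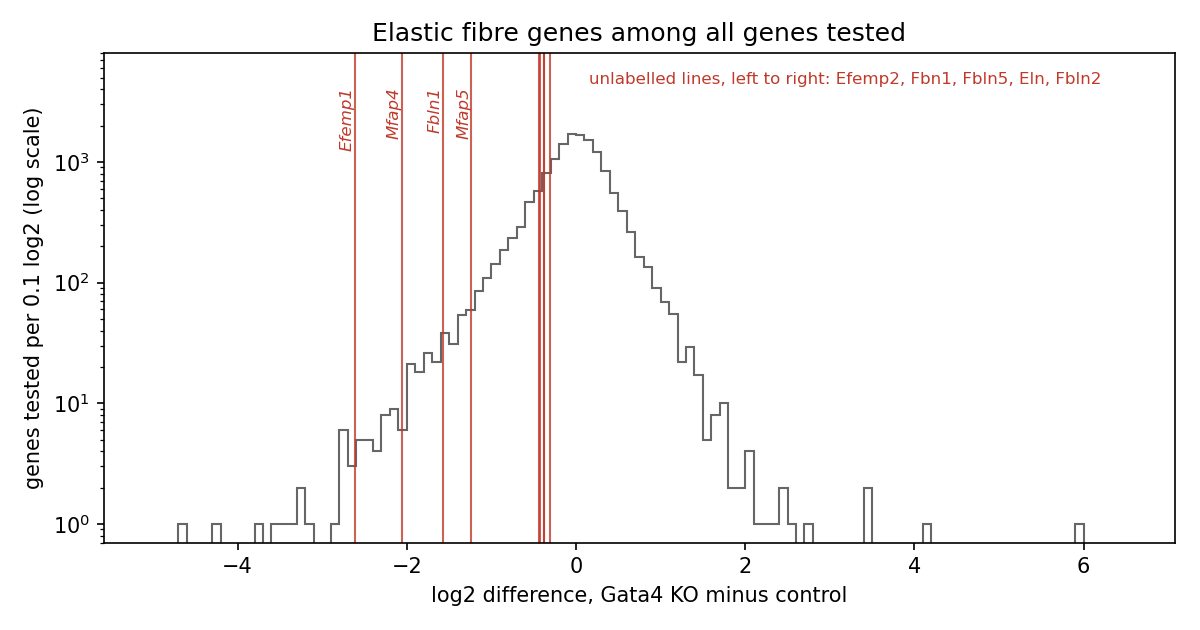
Number of genes tested (vertical axis, log scale) per 0.1 of log2 difference, Gata4 KO minus control (horizontal axis), with the 9 elastic fibre genes tested as red lines. Efemp1, Mfap4, Fbln1 and Mfap5 lie in the lower tail and the other 5 lie in the flank of the bulk.

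Efemp1 and Mfap4 had an unadjusted p under 0.05 whichever library was left out, whereas Fbln1 and Mfap5 had one in none of these fits. The adjusted p was 0.0228 for Efemp1 and 0.0462 for Mfap4 in a limma fit without genes tied at their lowest value, and above 0.05 in every other fit tried, from 0.0652 to 0.824 for Efemp1 and from 0.0705 to 0.963 for Mfap4. For each of the 9 genes the exact permutation test (two-sided) gave 0.333, the smallest p that groups of 2 can reach. Control 1 was the highest library in 7 of the 9 genes (34.2% of all genes). Gata4 KO 2 was the lowest in 6, and in 31.0% of all genes it had or shared the lowest value.

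Of 41 further genes, listed as partners of the elastic fibre or for the Mfap name alone, 32 varied, 16 of these lay below both controls (17.3% of all genes), 0 above (15.7%) and 16 overlapped. Their median log2 difference was -0.40, and -0.13 without control 1. Without the 4 genes that share only the Mfap name, 16 of 28 lay below both controls, 12 overlapped and the median was -0.50. None passed limma with Benjamini-Hochberg adjustment, and at an unadjusted p of 0.05, 10 were lower (5.36% of all genes) and 0 higher (2.76%).

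Of 8 listed genes that crosslink elastin or help it to mature, 7 varied and 5 of these lay below both controls (17.3% of all genes). Loxl1, a lysyl oxidase-like gene known for the upkeep of elastic fibres, had log2 values of -0.75 and -1.79 in Gata4 KO and 1.34 and 0.75 in control. Its value was 4.96-fold lower in Gata4 KO, the largest difference of this role (log2 difference -2.31, standard error 0.44, adjusted p = 0.327 by limma). Lox, the lysyl oxidase gene itself, had log2 values of -0.18 and -0.94 in Gata4 KO and 0.66 and 0.18 in control (log2 difference -0.98). Fkbp10, which encodes a chaperone of collagen and tropoelastin, had a log2 difference of -0.93.

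Among 13 listed microfibril partners, 10 varied and 6 of these lay below both controls (17.3% of all genes). Adamtsl4, whose protein binds fibrillin microfibrils, had log2 values of -0.96 and -0.42 in Gata4 KO and 0.49 and 0.42 in control (log2 difference -1.14). Ltbp3 and Ltbp1, which encode proteins that store latent TGF-beta on microfibrils, had log2 differences of -1.09 and -0.89. In these 3 genes the controls were alike, within 0.08, and the Gata4 KO libraries were spread more widely.

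Of 5 listed emilins and multimerins, 4 varied and 3 of these lay below both controls (17.3% of all genes). Mmrn1, a multimerin gene known from platelets and lymphatic endothelium, had log2 values of -0.73 and -2.64 in Gata4 KO and 0.73 and 1.06 in control (log2 difference -2.58, standard error 0.65). Gata4 KO 2 was much the lowest library. Emilin2 was at least 1.45-fold lower, its Gata4 KO libraries sharing the lowest value, and Emilin1, an elastic fibre glycoprotein gene, had a log2 difference of -0.18.

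Of the remaining fibulins, Hmcn1, which encodes a hemicentin, had a log2 difference of -0.72 and lay below both controls, and Fbln7 was above its lowest value in Gata4 KO 1 alone. Of 8 listed proteases that can degrade elastin, 5 varied and 1 of these lay below both controls (17.3% of all genes). This was Mmp2, a gelatinase gene, with log2 values of -0.50 and -0.77 in Gata4 KO and 1.33 and 0.50 in control (log2 difference -1.55). The cathepsin genes Ctsk and Ctss had log2 differences of -0.86 and 0.49, with controls 2.01 and 1.72 apart. The 4 genes that share the Mfap name without a known place in elastic fibres all overlapped between groups, with a median log2 difference of 0.13: Mfap3 had 0.21, Mfap3l -0.17 and the splicing factor gene Mfap1a 0.13.

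**Figure D3:**
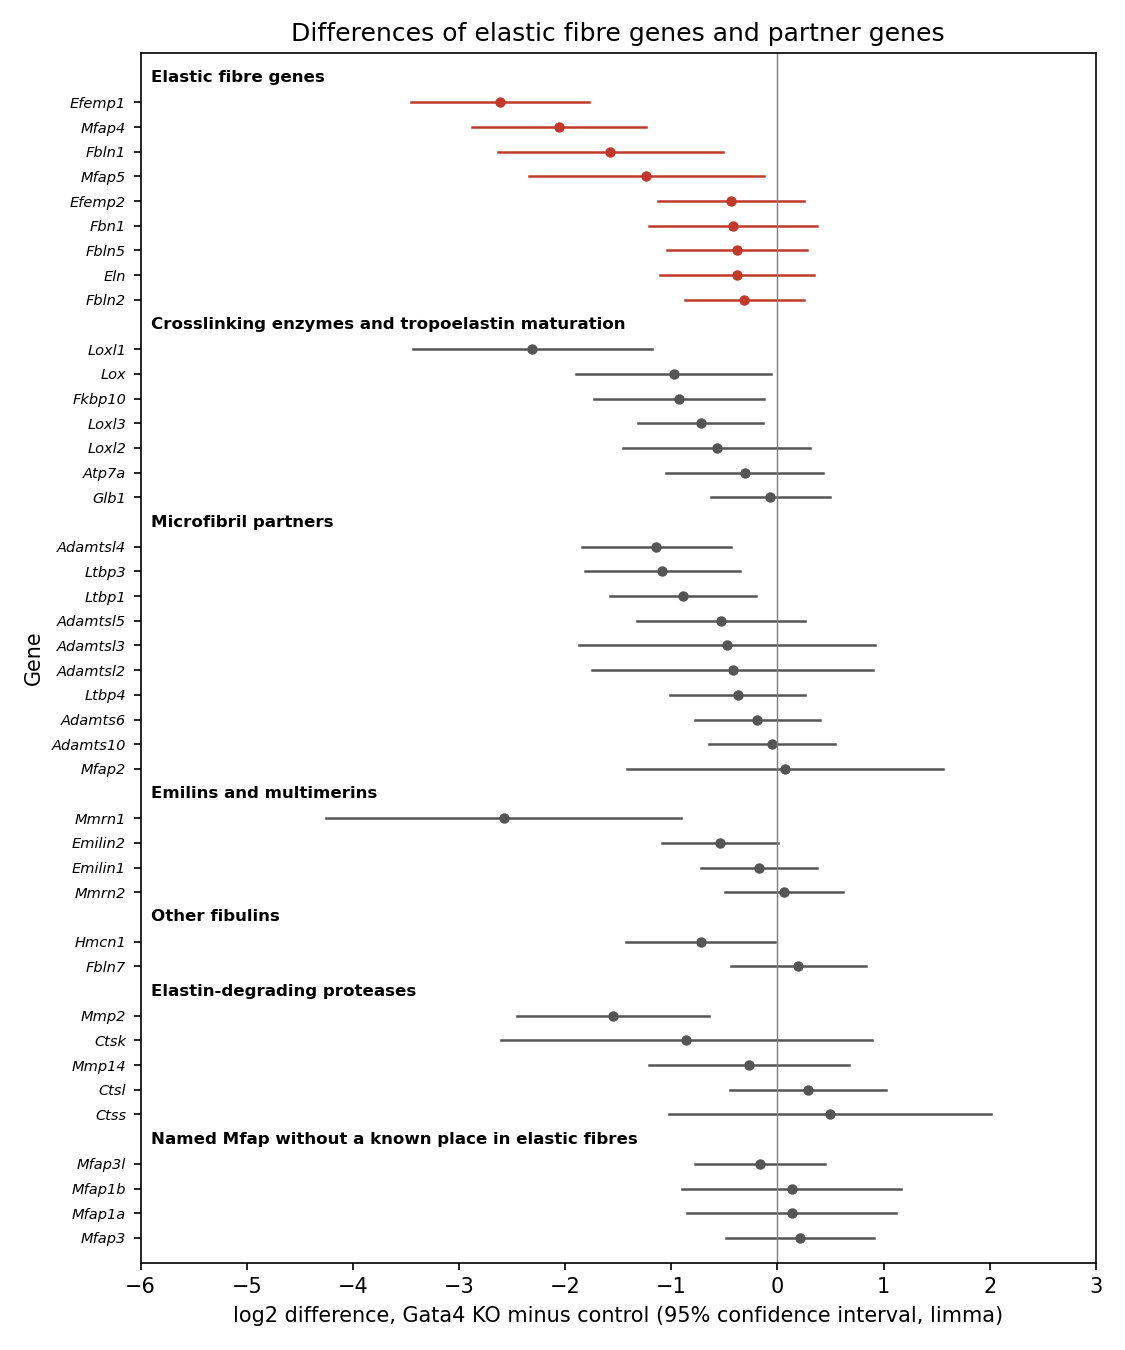
Log2 difference, Gata4 KO minus control (horizontal axis), with its 95% confidence interval from limma, for the 9 elastic fibre genes tested (red) and 32 genes listed as partners or for the Mfap name (grey) by role. Intervals of Efemp1, Mfap4, Fbln1, Mfap5 and 10 of the listed genes lie wholly below 0 before adjustment for the number of genes.

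Fibroblast markers, too, were lower in Gata4 KO than in control. All 12 lay below both controls (17.3% of all genes), with a median log2 difference of -1.31. The largest differences were those of Dcn at -1.90 and Lum at -1.83. The list median was -0.27 and -0.87 in Gata4 KO 1 and 2 and 1.18 and 0.20 in control 1 and 2, beside -0.22, -0.53, 0.73 and 0.35 over the 9 elastic fibre genes in the same libraries. Control 1 was the highest library in 12 of 12 fibroblast markers (34.2% of all genes). Such a comparison is not particular to fibroblasts. In the same order of libraries, the median over macrophage markers was -0.87, -0.38, 0.73 and 0.40. Lymphatic markers had medians of -0.53, -0.88, 0.63 and 0.76, and endocardial markers -0.31, -1.02, 0.31 and 0.73. The part of fibroblast transcripts in the differences of elastic fibre genes was not tested.

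Markers of smooth muscle and pericytes, the other main source of elastic fibres in vessels, had a median log2 difference of -0.02, with 4 of 10 below both controls and 1 above, Cnn1 at -2.17 being the largest. The median was -1.24 for endocardial markers (5 of 6 below both controls), -1.51 for lymphatic markers (5 of 6), -1.34 for macrophage markers (5 of 6) and -0.39 for cardiomyocyte markers (3 of 6). It was 0.16 for pan-endothelial markers (5 of 10 above both controls and 0 below) and -0.02 for arterial markers (3 of 8 above and 2 below). The 4 mesothelial markers that varied had a median of 0.11. Counts cover markers that varied, and of all genes tested 17.3% lay below both controls and 15.7% above. The part of these cell types in the elastic fibre differences was not tested.

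**Figure D4:**
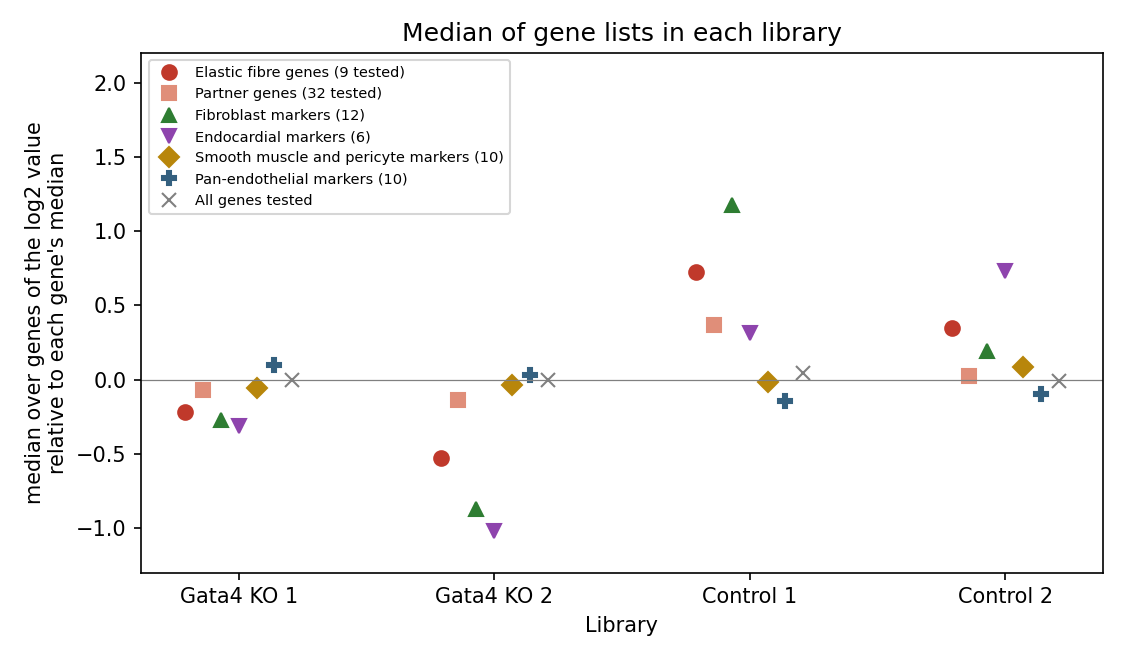
Median over the genes of each list of the log2 value relative to the gene's median (vertical axis) in each of the 4 libraries. Elastic fibre genes, partner genes and fibroblast markers are all highest in control 1 and lowest in Gata4 KO 2. Endocardial markers are also lowest in Gata4 KO 2 (-1.02) and highest in control 2 (0.73). Pan-endothelial and smooth muscle markers lie between -0.15 and 0.10 in every library. Lymphatic, macrophage and the remaining marker lists are not drawn.

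The 5 genes nearest to the median profile of the 9 elastic fibre genes, by Euclidean distance over the 4 libraries, were Gas1 (distance 0.12, log2 difference -0.98), C3ar1 (0.13, -0.87), Uprt (0.13, -0.89), Tnfaip2 (0.13, -0.82) and Sfpi1 (0.14, -0.95). This profile takes the median of the 9 genes in each library separately and belongs to no single gene. No elastic fibre gene had a log2 difference between that of Mfap5 (-1.24) and that of Efemp2 (-0.44), where these 5 genes lie. With 4 libraries many genes can share a profile. Nearest neighbours of single family genes were looked up after values were seen: Mfap5 lay nearest to the collagen genes Col1a1 (0.13) and Col1a2 (0.18), Fbln1 to Scn7a (0.084) and Mfap4 to Olfml1 (0.094). Efemp1 lay nearest to Wfdc17 (0.22), Abi3bp (0.22) and Fmod (0.31), followed by the Y-linked gene Kdm5d (0.33) and by Vsig4 (0.38). Mfap4 also had the lymphatic marker Lyve1 (0.27) among its 5 nearest genes. Family genes with small differences had closer neighbours: Fbln2 Abcc1 (0.019), Efemp2 Abca2 (0.030), Eln Apoa1bp (0.039), Fbn1 Lair1 (0.046) and Fbln5 1110059G10Rik (0.066).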

How the data were processed

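RNA-seq libraries of 2 Gata4 KO and 2 control samples were compared. The deposited tables, exported per the file headers from a fold-change analysis of Ensembl genes, hold a log2 value per gene and library, the authors' log2 fold change and a signed fold change score. Per the submitters' processing notes the build was mm10. The sources used here name no aligner, counting method, library scaling or unit before the logarithm. Depth is unknown. Each gene's median over the 4 libraries was 0, and libraries tied at the lowest value of a gene and at no other (tolerance 2e-06).

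Both tables were joined (38087 genes). Those with the same value in all 4 libraries (23617 genes) were left out, and 14470 were tested, Gata4 KO minus control. The test was limma 3.58.1 in R 4.3.3 (lmFit, eBayes without trend, two-sided, Benjamini-Hochberg, prior degrees of freedom 2.96 beside 2 residual). The fit was also run on normal values simulated from its own prior without ties, which cannot show how it behaves with tied genes. The trend was left out because centred values carry no level. The labels do not say whether libraries came from separate animals, so the spread behind the p-values may be technical. Replicate numbers follow the order of deposition. Genes, lists and tests were chosen with earlier results of these data known. All 10 genes are named, with up to 3 partner genes per role and up to 2 markers per list by size of difference. Coordinates come from GENCODE M21 and promoter sequences from RefSeq (GRCm38.p6). Alternatives were the prior, tied genes, library scaling, the filter, the threshold and leaving out each library.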

Additional observations from a re-analysis of the deposited data

How the results depend on the processing

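Because the groups of all 9 tested elastic fibre genes do not overlap, leaving out a library could not turn a direction or make groups overlap, and the prior, filter and tied-gene settings leave the values as they are. After library medians were subtracted, the one setting that could alter this, all 9 genes kept a lower mean in Gata4 KO and the groups of 8 did not overlap, those of Eln overlapping. The median log2 difference of the 9 genes ranged from -0.77 to -0.42, and that of the partner genes from -0.61 to -0.13, the smallest without control 1; leaving out the genes of the Mfap name, an alternative chosen after seeing the data, gave -0.50. The number of genes past an adjusted p of 0.05 was 0; it was 27 with a mean trend in the prior, 7 with a robust prior, 51 without genes tied at their lowest value, 7 with library medians subtracted and 9 with no filter on genes, and 9 at an adjusted p of 0.1. It was 0 without any single library, a fit in which the lone library of a group is assumed to vary like the other group. Beyond what each setting alters by construction (the prior, the genes, the values or the threshold), the cause of these shifts was not tested. At an unadjusted p of 0.05, 2 of the 4 lower elastic fibre genes, Efemp1 and Mfap4, remained lower without each library in turn and with no filter on genes, and Fbln1 and Mfap5 did not in any of these. Eln joined them without control 1, Fbn1 without control 2, Fbln5 without Gata4 KO 1 and Fbln2 with no filter. No paired analysis was possible because the labels give no shared replicate numbers. Depth limits cannot be computed, since the tables hold no counts.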
